A study of Mus musculus with 3 samples.

Results

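Classical monocytes that carried both Ly6c2 and Chil3 transcripts were described in CD45-positive cells of 4T1 mammary tumors. The cells were chosen by measured transcript counts. A monocyte had at least 3 of 8 monocyte genes detected (Ly6c2, Ccr2, Fn1, Vcan, F13a1, Plac8, Ms4a4c, Chil3), fewer than 10 UMIs (unique molecular identifiers, counts of distinct captured transcript molecules) of C1qa, C1qb and C1qc together, no Cd3e or Flt3, and at most 1 of the 4 granulocyte genes Cxcr2, Csf3r, Hdc and Il1r2. A member of the population had in addition at least 1 UMI of Ly6c2 and of Chil3, fewer than 2 of the 5 genes Ace, Ass1, Ly6i, Smpdl3b and Cxcl9 (the Ace list) and fewer than 2 genes of a further list that holds Inhba, Sdc1, Emp1, Tgm2 and Dmkn (the Inhba list). The rule found 91 cells, which were 6.04% of 1506 monocytes and 0.730% of 12472 kept cells. Of these, 23 came from the vehicle library, 42 from the p38i library and 26 from the p38KO library.

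The study asked how blocking the stress kinase p38 changes the immune cells of a breast tumor. Female BALB/c mice of 6 to 8 weeks received 200000 cells of 4T1-luc, a luciferase-labelled mouse mammary carcinoma line, in the 4th mammary fat pad, and tumors were taken on day 14. Vehicle mice carried p38α wild-type tumors and received DPBS, and p38i mice carried the same tumors and received LY2228820 (ralimetinib, a p38α/β inhibitor) by gavage at 30 mg/kg per day, in both cases from day 4 for 10 days. The p38KO mice carried tumor cells of a single CRISPR clone, H9, that lacks p38α, and no treatment is labelled for them. The inhibitor therefore reached host and tumor cells alike, while in p38KO the monocytes themselves had an intact gene. Tumors of 3 mice per condition were pooled before live (7AAD-negative) CD45-positive cells were sorted, so that each condition is 1 library, nothing measures the spread between mice, and no test between conditions was possible. All intervals below are 95% intervals for counting error only, and library and condition cannot be told apart. Both comparisons use the same vehicle library.

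Classical monocytes leave the bone marrow through the chemokine receptor Ccr2, circulate for a short time and enter inflamed tissue and tumors, where they can become macrophages or cells with dendritic cell features. In mice they carry Ly6C on the surface and express Chil3 (a chitinase-like secreted protein), Plac8, F13a1 (the A subunit of coagulation factor XIII), Lyz2 (lysozyme) and Hp (haptoglobin). The p38 kinases act downstream of stress, cytokine and Toll-like receptor signals. Through the kinase Mapkapk2 and the RNA-binding proteins of the Zfp36 family they set the stability of inflammatory transcripts, and the phosphatase Dusp1 switches p38 off in a feedback loop.

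The members were deeper than kept cells as a whole and close in depth to all monocytes. Their median UMI count was 8047 in vehicle, 8051 in p38i and 8166.5 in p38KO, against 3162, 3038 and 3317 in all kept cells. In all monocytes the median was 8387, 7300.5 and 8063 UMIs. Summed over members the libraries held 184757, 343194 and 208119 UMIs. The median mitochondrial share of members was 2.92%, 2.94% and 3.05%. Between libraries 6, 5 and 9 barcodes were shared among all barcodes (vehicle with p38i, vehicle with p38KO and p38i with p38KO), and no member shared its barcode with a member of another library.

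The label was checked against 5 marker genes, of which Ly6c2 (GRCm38 chromosome 15, 75108158 to 75111970, minus strand) and Chil3 (chromosome 3, 106147554 to 106167564, minus strand) were required by the rule and the others counted toward it, so their levels are a description. Ly6c2 per cell had a lowest, median and highest value of 0.995, 8.21 and 30.9 UMIs per 10000 in vehicle, 0.921, 7.24 and 28.6 in p38i, and 1.49, 10.6 and 36.1 in p38KO. Chil3 ran over 0.877, 7.58 and 29.2 in vehicle, 0.898, 3.42 and 26.6 in p38i, and 0.894, 4.56 and 36.9 in p38KO. The ranges of the libraries overlapped almost fully for both genes. Plac8, an endosomal protein of myeloid cells, was seen in every member, with a median of 39.1, 41.2 and 41.0 UMIs per 10000 in vehicle, p38i and p38KO. Ccr2 was seen in 23 of 23, 42 of 42 and 25 of 26 members, and F13a1 in 21, 35 and 21 members. Fn1 and Ms4a4c were seen in most members and Vcan, a matrix proteoglycan that marks human classical monocytes, in 6, 16 and 7 members.

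**Figure D1:**
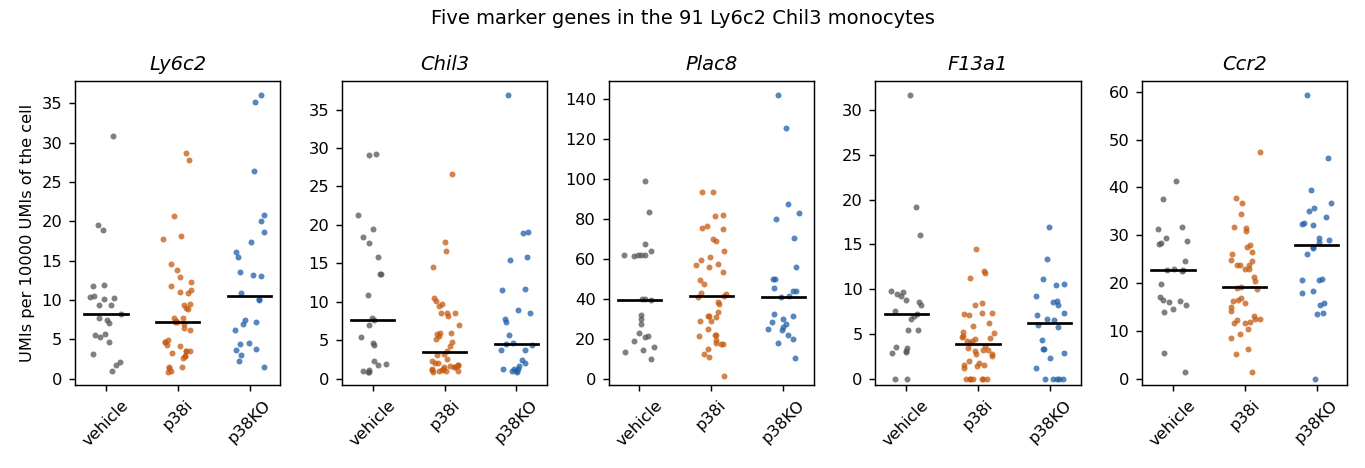
Levels of the marker genes Ly6c2, Chil3, Plac8, F13a1 and Ccr2 in each of the 91 members (y axis, UMIs per 10000 UMIs of the cell, a separate scale per gene), by library on the x axis. Each point is a cell and each line the library's median. The clouds of the libraries overlap for every gene, with the vehicle median of Chil3 at 7.58 above those of p38i (3.42) and p38KO (4.56).

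The same genes were counted in T cells and granulocytes of vehicle, p38i and p38KO, in that order. Chil3 had a UMI in 0.524%, 1.45% and 0.533% of T cells (median 5181, 3866 and 4730 UMIs per cell) and in 3.66%, 4.55% and 3.13% of granulocytes (median 2527.5, 2276 and 2209 UMIs). F13a1 had a UMI in 1.40%, 2.17% and 1.60% of T cells and in 4.61%, 6.16% and 5.10% of granulocytes. Ly6c2 was present in 33.5%, 22.4% and 21.5% of T cells, which themselves express Ly6C in part, and Ccr2 in 40.0%, 31.3% and 33.4%. In granulocytes Ly6c2 was present in 9.07%, 8.52% and 10.7% and Ccr2 in 7.98%, 9.58% and 8.34%. Plac8 had a UMI in 28.1%, 16.5% and 19.5% of T cells and in 47.8%, 44.2% and 44.8% of granulocytes. So Ly6c2, Ccr2 and Plac8 alone do not separate the lineages. After every cell was thinned to 1500 UMIs, Chil3 was still seen in 60.9%, 45.2% and 50.0% of members against 1.66%, 2.002% and 1.54% of granulocytes. The rule required a Chil3 UMI of every member, so this contrast was fixed by the choice of cells and is a description.

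The borders of the population were crossed by many cells. Among members, 27 had exactly 1 Chil3 UMI, 11 exactly 1 Ly6c2 UMI and 4 exactly 1 of both, while 139 monocytes stayed outside because Chil3 alone was not seen. In vehicle, the 5 members with exactly 1 Chil3 UMI had 4226 CPM (UMIs of the gene per 1000000 UMIs, summed over cells) of Plac8 and 1062 CPM of F13a1. The 38 vehicle cells left out for Chil3 alone had 2354 CPM of Plac8 and 188 CPM of F13a1. In p38i the contrast was smaller, with 4311 against 3877 CPM of Plac8 and 499 against 285 CPM of F13a1, and in p38KO it was 3619 against 1693 CPM and 674 against 215 CPM. A single Inhba-list gene was seen in 37 members, and 58 cells with exactly 2 were left out for that alone. For the Ace list the numbers were 28 members with 1 gene and 17 cells left out with exactly 2. When the rule was applied after thinning to 1500 UMIs (below, the thinned selection) it chose 35, 46 and 29 cells. Of these, 12, 12 and 10 were members at full depth, so which cells the rule chose depended on depth.

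Apart from neutrophil markers, markers of other immune and stromal lineages were at or near 0. No UMI of the 9 T cell, 7 conventional dendritic cell, 6 mast cell and basophil or 5 fibroblast markers was found in any member, which the rule fixed in part, as it admitted no Cd3e and no Flt3. The 7 NK cell markers summed to 1, 3 and 2 UMIs, the 6 tumor epithelial markers to 1, 0 and 0, and the 5 erythroid markers to 0, 0 and 1. The 6 B cell markers summed to 14, 19 and 16 UMIs, led by Ighm. The 7 mature macrophage markers, 3 of which the rule limits, summed to 27, 16 and 16 UMIs, led by Ms4a7. Exactly 1 of the 4 granulocyte genes, the most that the rule admits, was seen in 66 members. The 12 neutrophil markers, 4 of which the rule limits, summed to 861 CPM in vehicle, 1314 in p38i and 1984 in p38KO, led by S100a8. A single p38KO member of 2285 UMIs held 52.3% of that sum in its library, and results that rest on it are named below.

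The members stood apart from the monocytes that carried either the Ace or the Inhba list in genes that the rule did not use. The 264 monocytes that carried both lists were not in this comparison. These values are a description, since the genes were ranked by the size of this difference. Lyz2 was at 31950, 28931 and 33366 CPM in members of vehicle, p38i and p38KO, against 7937, 8635 and 8943 CPM in the Ace-list and Inhba-list monocytes of the same libraries. The ratio was 4.03-fold, 3.35-fold and 3.73-fold. In the monocytes of both lists Lyz2 was at 5856, 5968 and 7120 CPM. Hp, an acute-phase protein that binds hemoglobin and is made by immature myeloid cells, was at 1072, 1186 and 1206 CPM against 242, 272 and 225 CPM. Nr4a1, the nuclear receptor required for non-classical monocytes, was at 249, 125 and 255 CPM against 44.5, 19.4 and 24.7 CPM. Itga4, the α4 chain of the integrin VLA-4 with which leukocytes bind the vessel wall, was at 357, 341 and 548 CPM against 96.8, 81.6 and 79.6 CPM. In each of the 3 libraries these genes were higher in members, with the smallest log2 ratio at 1.74 (Lyz2 in p38i). So were Cebpd, Cd302, Add3, Selenop, Asap1 and Rassf4, with the smallest at 1.81 (Rassf4 in p38KO).

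A further set of genes was lower in members. Il7r, the interleukin-7 receptor α chain, was not seen in any member, against 203, 232 and 300 CPM in the Ace-list and Inhba-list monocytes. Taking 3 counts per library as the floor, it was at least 12.5-fold, 26.5-fold and 20.8-fold lower. Spp1, the secreted phosphoprotein osteopontin, had 2, 19 and 6 UMIs in members, or 10.8, 55.4 and 28.8 CPM, against 1114, 1410 and 1578 CPM. Cxcl14 had no UMI in any member, and Cxcl3, Ccl7, Pf4, Bcl2a1b, Hilpda, Fabp5 and Cxcl16 were also low in members of all 3 libraries. Apoe, the lipid carrier often read as a macrophage gene, did not follow them, with 8454, 6002 and 7236 CPM in members.

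**Figure D2:**
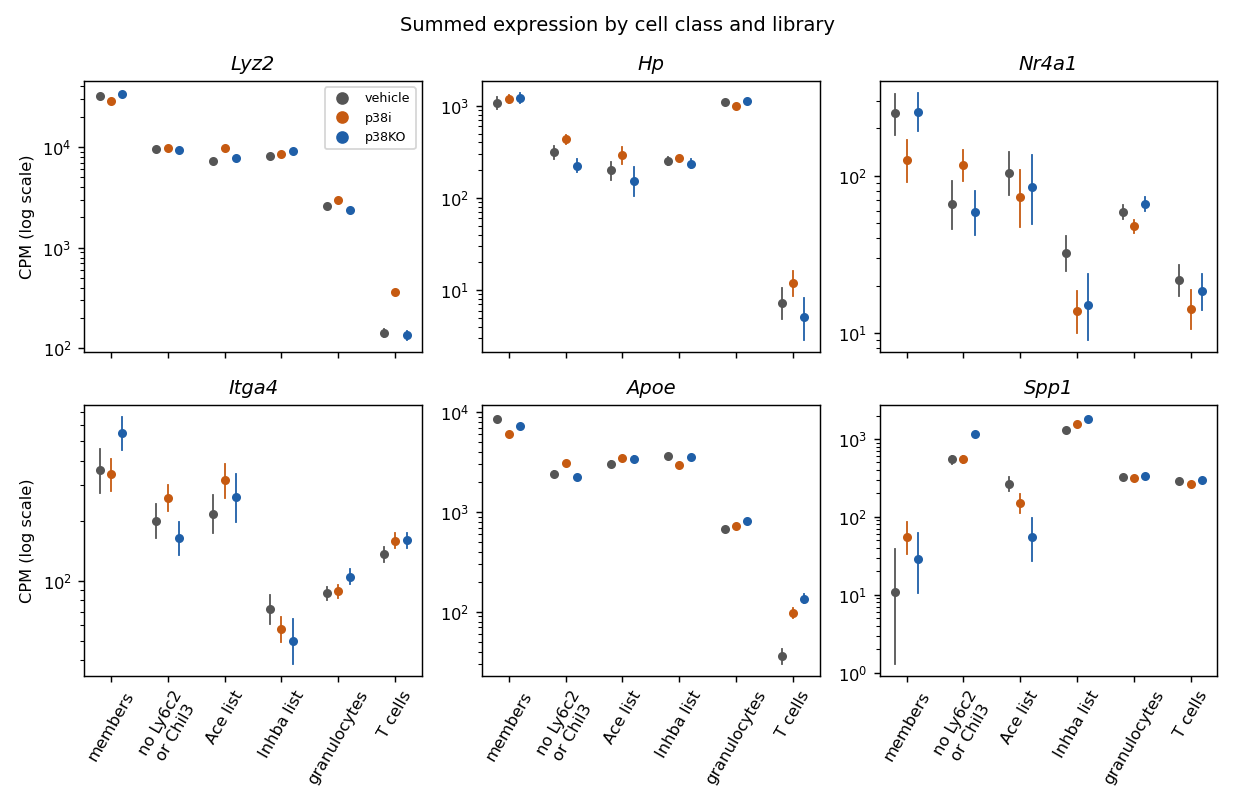
Summed expression of Lyz2, Hp, Nr4a1, Itga4, Apoe and Spp1 (y axis, CPM on a log scale, own scale per gene) in members, in the monocytes without Ly6c2 or Chil3, in Ace-list and Inhba-list monocytes, in granulocytes and in T cells (x axis). Points are libraries and bars exact Poisson 95% intervals. Members lie above the other monocyte classes for Lyz2 and Hp in all 3 libraries and below them for Spp1.

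Within the population the MHC class II genes varied strongly between cells. These genes (H2-Aa, H2-Ab1, H2-Eb1, Cd74 and others) load and present peptides to CD4 T cells. Their summed level per cell had a median of 4.26, 6.43 and 5.26 UMIs per 10000 in vehicle, p38i and p38KO and a highest value of 443, 442 and 402. The 3 highest cells held 74.4%, 50.0% and 79.4% of the list's UMIs. Members with 10 or more such UMIs numbered 9 of 23 (39.1%, interval 19.7 to 61.5), 18 of 42 (42.9%, 27.7 to 59.0) and 7 of 26 (26.9%, 11.6 to 47.8), and the intervals overlap. Clustering all 91 members together gave 2 subclusters of 53 and 38 cells, each with cells of every library. The smaller held 60.9% of vehicle members (interval 38.5 to 80.3), 42.9% of p38i members (27.7 to 59.0) and 23.1% of p38KO members (8.97 to 43.6). The vehicle and p38KO intervals overlapped only between 38.5 and 43.6, and overlap does not show that shares are equal. The smaller subcluster was led by H2-Eb1, H2-Aa, H2-Ab1, Cd74, Spon1, Clec4n, Adam8 and Thbs1, which defined it. In the larger, Casp2, Inpp5f, Cmpk2 and Arhgef3 were among the leading genes. Neither was given a cell type name, because their leading genes are not markers of another lineage fixed for these cells.

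The share of members chosen with Chil3 did not separate the conditions. Members were 0.602% of kept cells in vehicle (exact Clopper-Pearson interval 0.382 to 0.902), 0.876% in p38i (0.632 to 1.18) and 0.674% in p38KO (0.441 to 0.986). Of monocytes they were 5.23% (3.34 to 7.74), 5.88% (4.27 to 7.87) and 7.39% (4.88 to 10.6). All 3 intervals overlap on both scales. The share depends on the Chil3 requirement. Without it, 61, 91 and 78 cells qualified, which were 13.9% (10.8 to 17.4), 12.7% (10.4 to 15.4) and 22.2% (17.9 to 26.9) of monocytes. On that scale the p38KO interval lay above those of vehicle and p38i.

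Gene levels in members were then compared as log2 ratios of summed CPM to vehicle. A gene was called where the ratio was at least 0.5 either way, its exact conditional binomial interval left out 0 and both libraries together had at least 20 counts. In p38i 116 of 3612 genes were higher (3.21%) and 182 were lower (5.04%). In p38KO 134 of 2970 genes were higher (4.51%) and 114 were lower (3.84%). The median log2 ratio over tested genes was -0.02 in p38i and -0.01 in p38KO. Because a few cells can carry most UMIs of a gene, each ratio was also computed without the cell with the most UMIs in each library, which left 143 higher and 114 lower in p38i, and 114 higher and 78 lower in p38KO. A named gene is called stable below where it kept its call in every alternative that changed ratios, which were 7 for p38i and 9 for p38KO, the thinned selection and the selection without Chil3 included. In p38i 7 of 15 higher and 6 of 28 lower named genes were stable, and in p38KO 5 of 19 higher and 7 of 24 lower. Every other called named gene lost its call or fell below 20 counts in at least 1 of them. The totals include the rule genes Chil3 and F13a1 (lower in p38i), Ly6c2 and Tgm2 (higher in p38KO) and Emp1 (lower in p38KO). The rule set their levels in part, and none of them was stable. The 5 genes Dusp1, Osm, Stk17b, Zfp36l1 and Txnip were stable in both comparisons, though the sizes moved. Over the alternatives the p38i and p38KO log2 ratios ran from -1.73 to -1.08 and -2.86 to -1.78 for Dusp1, from -2.63 to -1.19 and -1.74 to -0.89 for Osm, and from -1.37 to -0.87 and -1.31 to -0.66 for Stk17b. They ran from -1.61 to -0.77 and -2.40 to -0.80 for Zfp36l1, and from 0.77 to 1.89 and 0.86 to 2.09 for Txnip.

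**Figure D3:**
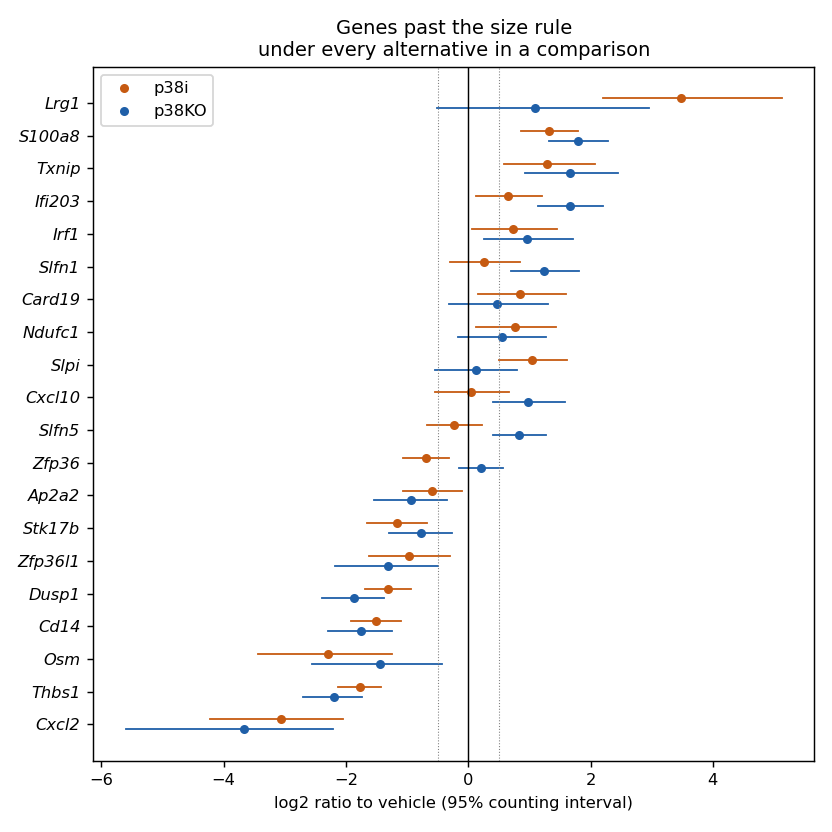
Log2 ratios to vehicle (x axis) of the genes that kept their call in every alternative in at least 1 comparison, with exact 95% counting intervals, p38i and p38KO in separate colors. The dotted lines mark ratios of 0.5 either way. The points of Dusp1, Osm, Stk17b and Zfp36l1 lie left of both lines in both comparisons and those of Txnip right of them, while Slfn5 lies right only in p38KO (0.83).

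Dusp1, the phosphatase that ends p38 signalling, was lower in both comparisons. It was at 774 CPM (143 UMIs in 21 of 23 cells) in vehicle, 312 CPM (107 UMIs in 24 of 42 cells) in p38i and 211 CPM (44 UMIs in 13 of 26 cells) in p38KO. Per cell the median was 5.92, 1.04 and 0.595 UMIs per 10000 and the highest value 32.1, 15.3 and 8.25. The vehicle members were higher as a group, and the ranges of the libraries overlapped from 0 upward. Against vehicle this gave log2 ratios of -1.31 (-1.69 to -0.94) for p38i and -1.87 (-2.39 to -1.38) for p38KO. Dusp1 was at 567 CPM in the smaller subcluster of members and 283 CPM in the larger, and vehicle had the highest share of the smaller. Within the larger subcluster its log2 ratios were -1.29 (-1.94 to -0.63) and -1.27 (-1.96 to -0.59), and within the smaller -1.08 (-1.56 to -0.61) and -2.73 (-4.21 to -1.56). Dusp1 was also lower in the other monocyte classes, with log2 ratios of -1.74 and -1.52 in Inhba-list monocytes, -1.95 and -2.37 in Ace-list monocytes and -1.42 and -2.24 in monocytes without Ly6c2 or Chil3.

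The Dusp1 promoter is shown because the gene moved in both comparisons and cAMP response elements (CRE, the palindrome TGACGTCA, searched on both strands) are known for it. Sequences are from RefSeq on GRCm38.p6, with 250 bases before and 50 after the gene's start, 5′ to 3′ on the gene's strand, and the motif in capitals. This element was found in 1.79% of 32851 promoters of that length, in Dusp1 once, and not in the promoters of Stk17b, Zfp36l1 and Txnip. Osm was not in the table. A match describes the letters and not binding.
Dusp1, chr17:26508423-26508722, minus strand: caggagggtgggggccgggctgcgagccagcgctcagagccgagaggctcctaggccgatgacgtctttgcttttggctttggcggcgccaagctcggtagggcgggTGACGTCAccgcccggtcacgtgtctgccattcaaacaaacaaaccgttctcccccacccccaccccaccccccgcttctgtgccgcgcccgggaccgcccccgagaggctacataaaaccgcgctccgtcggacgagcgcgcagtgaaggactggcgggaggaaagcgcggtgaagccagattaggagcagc

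Of the p38 pathway list (26 genes, kinases, substrates and feedback genes), 11 were tested in each comparison. In p38i 1 was higher and 4 were lower (Dusp1, Mapkapk2, Zfp36 and Zfp36l1), against 3.21% and 5.04% of all tested genes, with a median log2 ratio of -0.56. In p38KO none was higher and 3 were lower (Dusp1, Zfp36l1 and Creb1), against 3.84% of all tested genes, with a median of -0.31. Mapk14, the gene of p38α (chromosome 17, 28691329 to 28748406, plus strand), had 14, 48 and 28 UMIs in members, or 75.8, 140 and 135 CPM. The log2 ratios were 0.88 for p38i, with an interval that began just above 0, and 0.83 for p38KO (-0.15 to 1.87), and the p38i call was lost without the top cells and in the thinned selection. Since the knockout was made in tumor cells, this gene does not check the p38KO label here.

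Zfp36l1, which binds AU-rich elements and promotes decay of the transcripts that carry them, was at 227, 117 and 91.3 CPM in the 3 libraries, in the order vehicle, p38i, p38KO. Log2 ratios were -0.96 (-1.63 to -0.30) for p38i and -1.32 (-2.18 to -0.50) for p38KO. Its relative Zfp36 (tristetraprolin) was at 622, 385 and 716 CPM, lower in p38i alone (-0.69) and at 0.20 (-0.16 to 0.57) in p38KO. Zfp36l1 had log2 ratios of -0.25 and -0.46 within the larger subcluster and -0.91 and -0.94 within the smaller, and the interval left out 0 for p38i in the smaller alone. In the other monocyte classes its ratios were -0.66 and -0.04 (Inhba-list), -0.94 and -0.79 (Ace-list) and -1.39 and -1.81 (without Ly6c2 or Chil3).

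Stk17b, a death-associated serine/threonine kinase, was seen in 23 of 23 vehicle cells, 26 of 42 p38i cells and 22 of 26 p38KO cells, at 444, 198 and 259 CPM. Its log2 ratios were -1.16 (-1.65 to -0.68) and -0.77 (-1.30 to -0.26). Within the subclusters they were -1.28 and -0.38 (larger) and -0.81 and -0.54 (smaller), and both p38KO intervals there reached past 0. Osm, the cytokine oncostatin M, had 29, 11 and 12 UMIs in 10, 6 and 6 cells, with log2 ratios of -2.29 (-3.44 to -1.25) and -1.44 (-2.55 to -0.43). Of the 29 vehicle UMIs of Osm 25 lay in the smaller subcluster, and within the larger its ratios were -0.53 (-2.43 to 1.66) and 0.09 (-1.71 to 2.21). In Ace-list monocytes Osm was lower in both (-1.21 and -1.68). In Inhba-list monocytes it was lower in p38i (-1.04) and higher in p38KO (0.47, 0.23 to 0.71), so its p38KO direction there was opposite to that in members. Txnip, a thioredoxin-binding protein that limits glucose uptake (chromosome 3, 96557957 to 96561883, plus strand), went the other way. It was seen in 8 of 23 vehicle cells, 30 of 42 p38i cells and 20 of 26 p38KO cells, at 108, 265 and 341 CPM, with log2 ratios of 1.29 (0.58 to 2.07) and 1.66 (0.92 to 2.45). In Inhba-list monocytes Txnip had log2 ratios of 1.01 and 0.67, and in Ace-list monocytes 0.85 and 0.96. Within the larger subcluster the Txnip ratios were 1.80 and 2.11, and within the smaller 0.84 (-0.11 to 1.86) and 0.90 (-0.43 to 2.18).

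**Figure D4:**
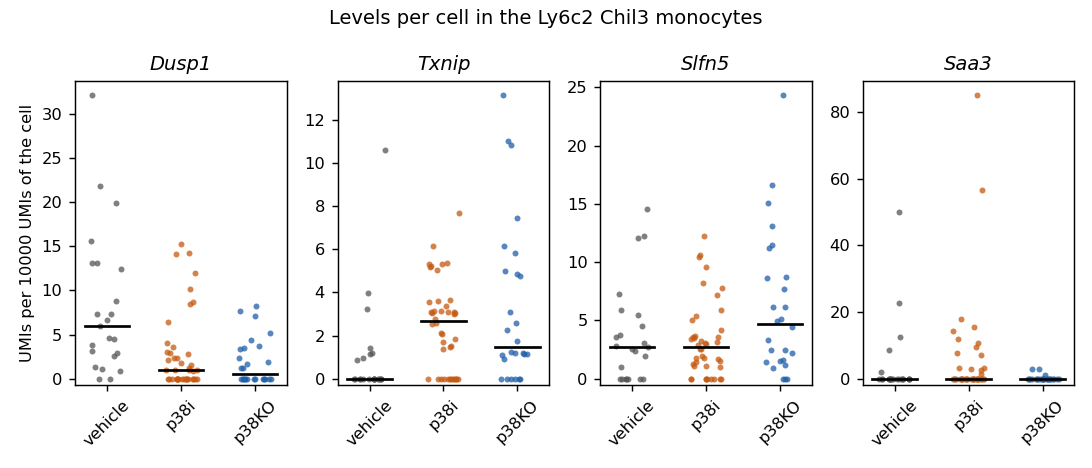
Levels of Dusp1, Txnip, Slfn5 and Saa3 in each member (y axis, UMIs per 10000 UMIs of the cell, own scale per gene) by library (x axis), points being cells and lines medians. Dusp1 medians are 5.92, 1.04 and 0.595 in vehicle, p38i and p38KO, and Saa3 is carried by few cells (5, 15 and 3).

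Immediate-early genes, which cells switch on within minutes of a stimulus or of tissue dissociation, included Dusp1. Of the 20 listed genes 16 were tested in each comparison. In p38i none was higher and 8 were lower (Fos, Jun, Ier3, Ier5, Dusp1, Btg2, Zfp36 and Nr4a1), against 5.04% of all tested genes, with a median of -0.52, and without the top cells 5 were lower and 1 was higher. In p38KO 3 were lower (Fos, Dusp1 and Ier3) and Ier2 was higher, against 3.84% and 4.51% of all tested genes. The median was 0.01, or -0.74 in the thinned selection. Fos, a subunit of the transcription factor AP-1, was at 1223, 752 and 807 CPM, with log2 ratios of -0.70 and -0.60. These were -0.11 and -0.12 and not called when at least 2 UMIs of Ly6c2 and of Chil3 were required, and the p38i call was also lost without Chil3 in the rule. Junb was at 974, 1233 and 1259 CPM and was not called in either. Ier3 lost its call in both comparisons without the top cells.

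**Figure D5:**
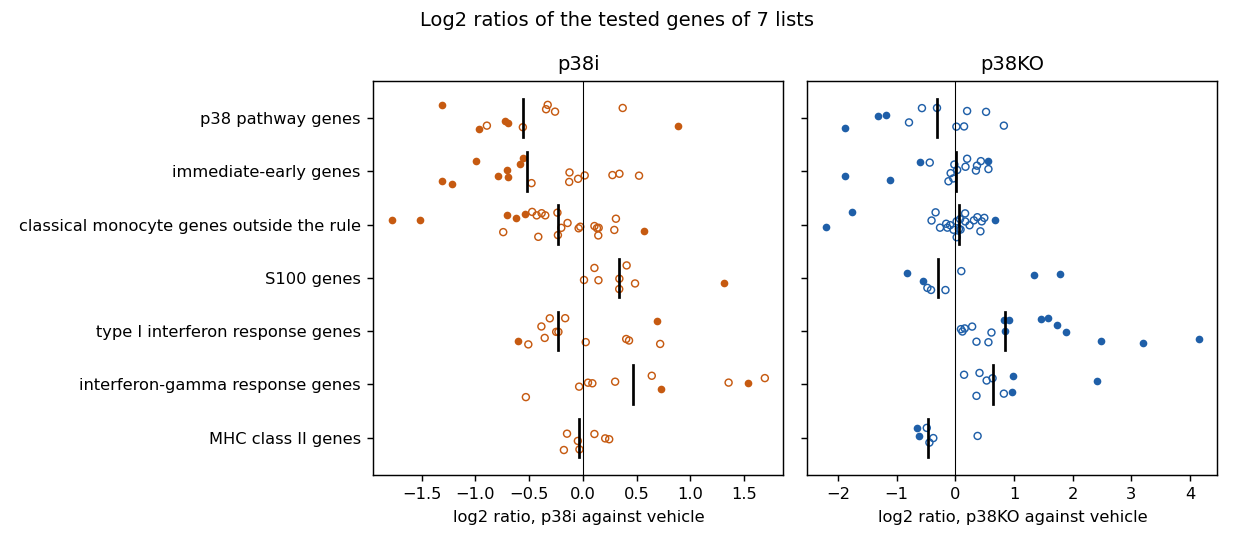
Log2 ratios to vehicle (x axis) of the tested genes of 7 lists (y axis), p38i on the left and p38KO on the right. Filled points are called genes, open points are not, and the black line is the list's median. Type I interferon genes have a median of -0.23 over 13 genes in p38i and 0.84 over 17 genes in p38KO, some of which reached 20 counts through p38KO. Over the 13 genes tested in p38i the p38KO median is 0.62.

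Among classical monocyte genes outside the rule, 24 of 26 were tested in p38i, with 1 higher and 5 lower, against 3.21% and 5.04% of all tested genes. Their median was -0.24, or 0.09 in the thinned selection. In p38KO 23 were tested, with 1 higher and 2 lower, against 4.51% and 3.84% of all tested genes, and a median of 0.06. Lyz2, Hp, Ms4a6c and Ifitm3 were not called in either comparison. Thbs1, the matrix glycoprotein thrombospondin-1, was at 1018, 297 and 221 CPM, but a single vehicle cell held 81 of its 188 UMIs there. Its log2 ratios were -1.78 and -2.20, or -1.27 and -1.97 without the top cells. Thbs1 was at 915 CPM in the smaller subcluster, which it helped to define, and at 138 CPM in the larger. Within the larger subcluster the Thbs1 ratios were -2.14 and -1.30, and within the smaller -1.23 and -1.40. In the thinned selection the Thbs1 ratios were -0.56 and -0.42, and the p38KO call was lost. Cd14, the co-receptor for lipopolysaccharide, was at 698, 245 and 207 CPM, with log2 ratios of -1.51 and -1.76. In the thinned selection the p38KO ratio was -0.53 and the p38i ratio turned to 0.44. Mgst1, a microsomal glutathione transferase, was at 406, 600 and 649 CPM, with log2 ratios of 0.56 and 0.68 that lost their call in the thinned selection.

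Transcription factors of the myeloid lineage were mostly not called. Of the C/EBP and myeloid transcription factor list 15 of 18 genes were tested in each comparison. In p38i 3 were lower (Cebpb, Nr4a1 and Maf), against 5.04% of all tested genes, with a median of -0.42. In p38KO Cebpb was lower and Cebpd was higher, against 3.84% and 4.51% of all tested genes, with a median of 0.03. Cebpb, a factor of emergency myelopoiesis, was at 2474, 1591 and 1566 CPM, with log2 ratios of -0.64 and -0.66. In the thinned selection Cebpb (-0.22 in both) was no longer called. Id2, an inhibitor of E-protein transcription factors, was at 363, 146 and 91.3 CPM, and its log2 ratios of -1.32 and -1.99 turned to 0.09 and 0.26 in the thinned selection.

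Inflammatory cytokine genes were few. Of the 21 listed genes, 11 were tested in p38i and 10 in p38KO, and Cxcl2 and Osm were lower in both while none was higher. Of all tested genes 5.04% were lower in p38i and 3.84% in p38KO. The list medians were -0.28 and -0.35, which turned to 0.07 and 0.51 in the thinned selection. Cxcl2, a neutrophil-attracting chemokine, had 45 UMIs in 12 vehicle cells, 10 in 7 p38i cells and 4 in 4 p38KO cells, with log2 ratios of -3.06 (-4.22 to -2.05) and -3.66 (-5.60 to -2.21). The p38KO ratio was -1.22 in the thinned selection and still called, whereas the p38i ratio there was 0.07. Il1b, the most abundant gene of the list, was at 1461, 1203 and 1735 CPM and was not called. Of 17 tested chemokine and growth factor receptors, 3 were lower in p38i (Ccr1, Cx3cr1 and C5ar1), against 5.04% of all tested genes. In p38KO, also with 17 tested, Ifngr1 was lower and Fpr2 was higher, against 3.84% and 4.51% of all tested genes.

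Some genes differed in p38i without a call of the same sign in p38KO. Lrg1, a leucine-rich glycoprotein of the acute-phase response, had 5 UMIs in 5 vehicle cells, 103 in 17 p38i cells and 12 in 3 p38KO cells. Log2 ratios were 3.47 (2.20 to 5.12) for p38i and 1.09 (-0.52 to 2.95) for p38KO, and the p38i ratio was 1.33 in the thinned selection. Saa3, an acute-phase serum amyloid, had 57 UMIs in 5 vehicle cells, 238 in 15 p38i cells and 5 in 3 p38KO cells. Log2 ratios were 1.17 (0.75 to 1.61) for p38i and -3.68 (-5.36 to -2.38) for p38KO, and in Inhba-list monocytes it was 0.51 and -1.78. Saa3 was stable in neither comparison. Its p38KO ratio was -0.62 and not called in the thinned selection, and its p38i ratio was 0.21 and not called when at least 2 UMIs of Ly6c2 and of Chil3 were required. Slpi, a secreted protease inhibitor, was at 195, 399 and 211 CPM, with log2 ratios of 1.03 and 0.12. Card19 and Ndufc1 were stable in p38i, like Lrg1 and Slpi, with log2 ratios of 0.85 and 0.76.

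The calprotectin genes S100a8 and S100a9, which neutrophils hold in large amounts, were seen in most members, but in p38KO a single cell held much of their sum. S100a8 had 48, 222 and 187 UMIs in 16 of 23, 34 of 42 and 14 of 26 cells, with log2 ratios of 1.32 (0.86 to 1.80) and 1.79 (1.33 to 2.28). In p38KO 95 of the 187 UMIs lay in 1 cell, and in the thinned selection the p38KO ratio was -1.58. S100a9 had 43, 101 and 123 UMIs. Its p38KO log2 ratio of 1.34 turned to -0.96 without the top cells, where 1 p38KO cell held 100 UMIs. That cell was the member of 2285 UMIs named above, and without members that had at least 1% of their UMIs in neutrophil markers the S100a9 ratio was -1.06. Of the 8 S100 genes 1 was higher in p38i (median 0.34), against 3.21% of all tested genes. In p38KO 2 were higher and S100a10 and S100a13 were lower (median -0.29), against 4.51% and 3.84% of all tested genes.

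Several interferon-response genes were higher in p38KO. Of 25 type I interferon response genes in the files 17 were tested in p38KO, where 10 were higher and none was lower, against 4.51% higher and 3.84% lower over all tested genes, with a median log2 ratio of 0.84 against -0.01. Some genes, such as Ifit1, Ifit3 and Rsad2, reached 20 counts through their p38KO UMIs, which favours higher values among the tested genes. Of the list genes 13 had at least 20 counts in vehicle and p38i together, a filter that does not read p38KO. Among these, 6 were higher in p38KO (Oasl2, Ifi44, Ifi204, Rtp4, Ifih1 and Slfn5) and none was lower, with a median of 0.62. The share over all genes under that filter was not computed, and a call still needed 20 counts in vehicle and p38KO together. Without the top cells 6 were called higher, with a median of 0.67 over the genes that still had 20 counts, and in the thinned selection the median was 0.99. In p38i 13 were tested, with Trim30a higher and Ifi44 lower, against 3.21% and 5.04% of all tested genes, and a median of -0.23. The list's summed level was 4059 CPM in vehicle, 3724 in p38i and 6299 in p38KO, and its median per cell was 36.5, 35.1 and 44.1 UMIs per 10000. The highest 3 cells held 28.4%, 16.0% and 35.5% of the list's UMIs, so the p38KO sum rested more on a few cells than the p38i sum. In the larger subcluster, which held 39.1%, 57.1% and 76.9% of the members of vehicle, p38i and p38KO, the list summed to 3071, 3481 and 6570 CPM, and in the smaller to 4658, 4066 and 5291 CPM.

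Slfn5, a Schlafen family gene induced by interferon (chromosome 11, 82951349 to 82964840, plus strand), was at 379 CPM in 16 of 23 vehicle cells, 323 CPM in 33 of 42 p38i cells and 673 CPM in 23 of 26 p38KO cells. Log2 ratios were -0.23 (-0.67 to 0.22) for p38i and 0.83 (0.40 to 1.26) for p38KO, and it was stable in p38KO. Ifi203, a DNA sensor of the interferon-inducible p200 family, was at 217, 341 and 682 CPM, with log2 ratios of 0.66 and 1.66, and the p38i ratio was 0.33 and not called in the thinned selection. Slfn1 was at 211, 254 and 500 CPM, with log2 ratios of 0.26 and 1.24. Ifi44 was at 363, 239 and 682 CPM, with log2 ratios of -0.60 and 0.91, of which the p38i call was lost without the top cells and the p38KO call without Chil3 in the rule (0.46). Ifit3 had 1, 3 and 20 UMIs and a p38KO log2 ratio of 4.15 (1.51 to 9.52), and Ifit1 had 3, 13 and 31 UMIs with 3.20 (1.52 to 5.55). Rsad2 had 6, 0 and 25 UMIs. Ifit3, Ifit1 and Rsad2 reached 20 counts through p38KO, so their values are a description. In Inhba-list monocytes Slfn5 had log2 ratios of -0.15 and 0.72, and Ifi203 0.01 and 0.77. In Ace-list monocytes the p38KO ratios were 0.69 (0.23 to 1.14) for Slfn5 and 0.29 (-0.12 to 0.69) for Ifi203. In monocytes without Ly6c2 or Chil3 they were 0.20 (-0.23 to 0.64) and 0.05 (-0.26 to 0.36), and neither was called.

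The interferon-stimulated response element (ISRE, searched as GAAANNGAAA on both strands) was found in 3.44% of the 32851 promoters. Of the 6 type I interferon genes that were higher in p38KO and reached 20 counts without it, Ifi204 and Rtp4 were not in the table. The promoters of Oasl2 and Ifi44 did not hold the element, and those of Ifih1 and Slfn5 did. The Slfn5 promoter is shown, as Slfn5 had more UMIs than Ifih1, with the same window and source as for Dusp1 and the element in capitals. The Slfn5 element runs on into a stretch of A bases.
Slfn5, chr11:82951852-82952151, plus strand: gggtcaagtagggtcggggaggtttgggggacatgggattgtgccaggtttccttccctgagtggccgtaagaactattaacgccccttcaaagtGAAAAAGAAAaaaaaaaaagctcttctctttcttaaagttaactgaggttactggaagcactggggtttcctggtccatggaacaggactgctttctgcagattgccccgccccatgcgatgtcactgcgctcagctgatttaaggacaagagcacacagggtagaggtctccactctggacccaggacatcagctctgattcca

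A few genes of the interferon-gamma response list were called. Of its 16 genes 10 were tested in p38i, with Gbp2 and Irf1 higher and none lower, against 3.21% and 5.04% of all tested genes. Their median was 0.47, which turned to -0.12 in the thinned selection. In p38KO 9 were tested, with Cxcl10, Irf1 and Socs1 higher and none lower, against 4.51% and 3.84% of all tested genes, and a median of 0.64. Irf1, the transcription factor induced by interferon-gamma, was at 135, 224 and 264 CPM, which gave log2 ratios of 0.73 (0.06 to 1.44) and 0.97 (0.26 to 1.71). Without Chil3 in the rule the p38KO ratio was 0.49 and not called. Cxcl10, a chemokine for activated T cells, had 37 UMIs in vehicle, all in 1 cell, 71 in 7 p38i cells and 82 in 8 p38KO cells, so its vehicle level rests on that cell.

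Of the non-classical monocyte genes 6 of 14 were tested in each comparison. In p38i 3 were lower (Nr4a1, Cx3cr1 and Itgal), against 5.04% of all tested genes, with a median of -0.73, and in p38KO none was called (median -0.27). Cx3cr1, the fractalkine receptor of patrolling monocytes, was at 281, 114 and 245 CPM, and its p38i ratio of -1.31 was -0.22 and not called without Chil3 in the rule, where that of Nr4a1 turned from -0.99 to 0.05. Of 13 tested macrophage genes Spp1 and Mmp12 were higher and Ms4a7 and Cx3cr1 lower in p38i (median -0.21), against 3.21% and 5.04% of all tested genes. Without the top cells no higher call and 1 lower call were left. In p38KO 10 were tested and the lysosomal proteases Ctsl and Lgmn were lower (median -0.14), against 3.84% of all tested genes. Neither of these calls held without the top cells, where 1 macrophage gene was called higher. The study's own monocyte gene list was chosen on these samples and is no independent evidence. Of its genes 11 were tested in p38i and 9 in p38KO, with Cxcl2 lower in both, against 5.04% and 3.84% of all tested genes.

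The calls of the remaining lists follow. Over all tested genes 3.21% were higher and 5.04% lower in p38i, and 4.51% higher and 3.84% lower in p38KO. Of the heat-shock genes 1 of 9 was lower in p38i (median -0.25) and 1 of 7 in p38KO (median -0.26). The MHC class II list had no call among 7 tested genes in p38i (median -0.03, or -0.98 in the thinned selection) and 2 lower among 6 in p38KO, Cd74 and H2-Ab1 (median -0.46), which turned to 0.80 and 0.84 in the thinned selection. The list's p38KO median was -0.67 without the top cells, where 3 genes were lower, and 0.84 in the thinned selection. No gene of the glycolysis and hypoxia list (17 tested, median 0.18) was called in p38i, where without the top cells 3 were higher, and in p38KO 1 of 15 was higher. Its p38i median was -0.18 in the thinned selection. Of the 11 tested MHC class I and immunoproteasome genes 1 was lower in p38i (median 0.17) and none was called in p38KO (median 0.04). None of the 11 mitochondrial genes was called in either comparison. Cell cycle genes were scarce, with 4 of 20 tested and none called, and their median per cell was 7.11, 7.22 and 8.29 UMIs per 10000. Of the rule genes, Chil3 was at 942, 527 and 750 CPM and F13a1 at 763, 466 and 682 CPM, and Ly6c2 was at 888, 839 and 1293 CPM. These genes chose the cells, and their levels are given without a reading.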

How the data were processed

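Deposited 10x matrices held raw UMI counts per gene and barcode for 3 libraries, made by the authors with Cell Ranger (6.0.0 per the file headers) on mm10 per the submitters' processing notes, which also name R 4.2.1 and Seurat 5. No filter of the study had been applied to the matrices. Barcodes below 1500 UMIs or 300 genes, or above 20% mitochondrial counts, were left out. Doublets were not called. An alternative left out the 5% of members with the most UMIs. Members and gene lists were chosen with earlier results of these data known. Some genes are not reported here and were left out of the list and named-gene counts.

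Counts were summed over members per library and scaled to CPM, with exact Poisson intervals. Log2 ratios carry exact conditional binomial intervals, 0.5 stands in for a count of 0, and shares carry exact Clopper-Pearson intervals, all at 95%. PCR duplicates were collapsed by UMI, and the intervals cover counting error only. The ratio code was tested on simulated counts. Subclusters used genes seen in at least 3 members, 2000 variable genes, 20 principal components, 15 neighbours and Leiden resolution 0.5. Named genes were the rule genes, Mapk14, the 10 largest changes per comparison and direction (at least 100 counts and 100 CPM), up to 4 abundant and 4 shared genes per list, the 10 leading genes per subcluster, the 10 most abundant genes, and the 10 genes each way that set members apart from other monocytes. Ifit1, Ifit3, Rsad2 and other list members outside this rule were named after their values were seen. Gene positions are from GENCODE M21 on GRCm38. Tools were Python 3.11.15, scanpy 1.11.5, numpy 2.4.6, scipy 1.17.1 and matplotlib 3.10.9. The alternatives varied depth, mitochondrial and marker limits, thinning, scaling, weighting, count minimum and size. The authors' flow cytometry and other assays were not analysed here.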

Additional observations from a re-analysis of the deposited data

How the results depend on the processing

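The choice of cells moved more values than scaling or weighting did. With at least 3000 UMIs per cell, members were 1.14%, 1.73% and 1.20% of kept cells in vehicle, p38i and p38KO. Without the Chil3 requirement they were 1.60%, 1.90% and 2.02% of kept cells and 13.9%, 12.7% and 22.2% of monocytes. After thinning to 1500 UMIs the vehicle shares were 0.916% and 7.85%. With at least 2 UMIs of Ly6c2 and of Chil3 they were 0.501% and 3.36% in p38i and 0.415% and 4.55% in p38KO. The library intervals of the share of kept cells overlapped in every one of these settings, whereas those of the share of monocytes without Chil3 did not, with p38KO (17.9 to 26.9) above vehicle (10.8 to 17.4) and p38i (10.4 to 15.4).

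Counts of called genes moved as follows. Without Chil3 in the rule 305 genes were higher and 490 lower in p38i, and 356 higher and 320 lower in p38KO, in larger sums of cells. With at least 100 counts the numbers were 33 and 60, and 28 and 39. With at least 1 count 282 were lower in p38i, and 207 higher and 190 lower in p38KO. With a log2 ratio of at least 1, 72 were higher and 92 lower in p38i, and 63 lower in p38KO. Without the top cell of each gene (chosen after the data were seen, like the neutrophil marker setting) 114 were lower in p38i. After thinning 255 were higher in p38KO. Leiden resolution 1 gave 5 subclusters.

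Signs were compared for the named genes with a call only. Those that changed sign after thinning were, in p38i, Cd14 (0.44), Id2 (0.094), Chil3 (0.023), Cxcl2 (0.072), Ier3 (0.022) and F13a1 (0.27), and, in p38KO, S100a8 (-1.58), S100a9 (-1.56), Id2 (0.26), Hopx (-0.033), Pdia3 (0.029), Cd74 (0.80), H2-Ab1 (0.84) and Ier3 (0.040). Without Chil3 in the rule they were, in p38i, Hopx (-0.31), Nr4a1 (0.049) and Ccl2 (1.16), and, in p38KO, Id2 (0.032), Grcc10 (0.018), Eif2s2 (0.018), Cd74 (0.056), H2-Ab1 (0.38), Hsp90aa1 (0.040) and Tgm2 (-0.28). S100a9 in p38KO was -1.06 with at least 3000 UMIs and also without cells rich in neutrophil markers, -1.12 with at least 2 UMIs of the gate genes and -0.96 without the top cells. The cause of these changes was not tested.

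List medians moved after thinning, in p38i, for MHC class II (-0.98), interferon-gamma response (-0.12), glycolysis and hypoxia (-0.18) and mitochondrial genes (0.051), and, in p38KO, for MHC class II (0.84), inflammatory (0.51), immediate-early (-0.74) and the study's monocyte genes (-0.052). Without the top cells the glycolysis median in p38i was 0.41 and the MHC class II median in p38KO -0.67. Median-ratio scaling shifted all ratios by 0.02 in p38i and 0.01 in p38KO. No paired analysis was possible because each condition has 1 library, and leaving out a replicate was not possible for the same reason. With 23 to 42 members per library, genes under 20 counts in both libraries together were left out of the report's calls.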
